A study of Mus musculus with 12 samples.

Results

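Immediate early genes are the genes that a cell switches on within minutes of a stimulus, before any new protein is made, through transcription factors that are already present, such as SRF with its partners, CREB and NF-kB. Many of them encode transcription factors (the AP-1, EGR, NR4A and KLF families) that start a later wave of transcription, and others encode phosphatases, RNA decay factors and inhibitors that end the signal. Their mRNAs are mostly short-lived. Here 37 such genes were followed in lung and liver of mice on 2 levels of dietary selenium (Se). The members came from a fixed list of gene symbols, chosen with earlier results of these data known. In each tissue a member was represented by the probe set annotated to that gene alone that had the highest mean signal. Of the 37 members, 35 had such a probe set (65 probe sets in all, of 29409 in the series, in which 13710 genes had one). Arc and Fosl1 had none, and Fosb was listed on no array. In lung 34 members could be tested and in liver 23, among 10913 and 8991 genes tested in these tissues.

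The study asked how dietary Se shapes gene expression. Male wild-type mice of the FVB/N strain received, from weaning and for 6 weeks, a Se-deficient diet with sodium selenite added at 0.1 ppm (0.1 Se) or at 0 ppm (0 Se). Both groups thus shared the deficient base diet and differed in the added selenite. They were killed with CO2, and whole lungs and livers were rinsed, frozen and used for total RNA, so that each sample mixes all cell types of the organ. Affymetrix 3′ arrays were run on 3 biological replicates per group, which gives the groups 0.1 Se lung, 0 Se lung, 0.1 Se liver and 0 Se liver (12 arrays). Values are log2 signals, in which 1 unit is a 2-fold difference. A blank in the table means that the probe set was called absent or had a signal under 100, and the blank is not a measured 0. In bulk tissue a lower signal can stand for fewer cells of a type or for less RNA per cell, and these cannot be told apart.

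Arrays of a tissue held values for 22197 to 22718 probe sets in lung and 17235 to 17923 in liver. Their median log2 signals lay between 8.96 and 9.00 in lung and between 9.16 and 9.21 in liver. The tissue labels went with their markers. The 9 hepatocyte genes were all tested in liver, while 7 of them, among them Apoa1 and Ttr, were blank on each lung array. The ciliated cell genes were blank in liver. All 6 heart muscle genes, such as Myh6 and Actc1, were measured in lung, with a summed signal of 4280 to 17512 in 0.1 Se lung and 3822 to 28584 in 0 Se lung. They were blank on each liver array.

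In lung most immediate early genes lay lower in 0.1 Se than in 0 Se, and no single member passed the test after adjustment. Of 34 members tested, 28 (82.4%) had a log2 fold change below 0, against 52.1% of all probe sets. The median was -0.33, with a range from -1.21 to 0.56, where the median of all 21655 probe sets was -0.01 and their middle quartiles ran from -0.12 to 0.10. By limma with Benjamini-Hochberg adjustment over all probe sets, 0 of 34 members passed, against 0.0924% of all probe sets. At an unadjusted p under 0.05, 13 members were lower in 0.1 Se lung (38.2%, against 4.12% of all probe sets) and 1, Myc, was higher (2.94%, against 3.55%). The methods' t-test, without pooling of the spread, gave 4 lower (Jund, Nr4a2, Klf2 and Sik1) and 0 higher at an unadjusted p under 0.05, and 0 after adjustment. All 3 arrays of 0.1 Se lung lay below all 3 arrays of 0 Se lung for 6 of the 32 members listed on each array (18.8%, against 6.86% of all probe sets), and above them for 0 (against 6.07%). With 3 arrays against 3 an exact two-sided test of one gene cannot go below p = 0.1. Since the list was chosen with earlier results of these data known, its shares beside those of all probe sets are descriptive.

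**Figure D1:**
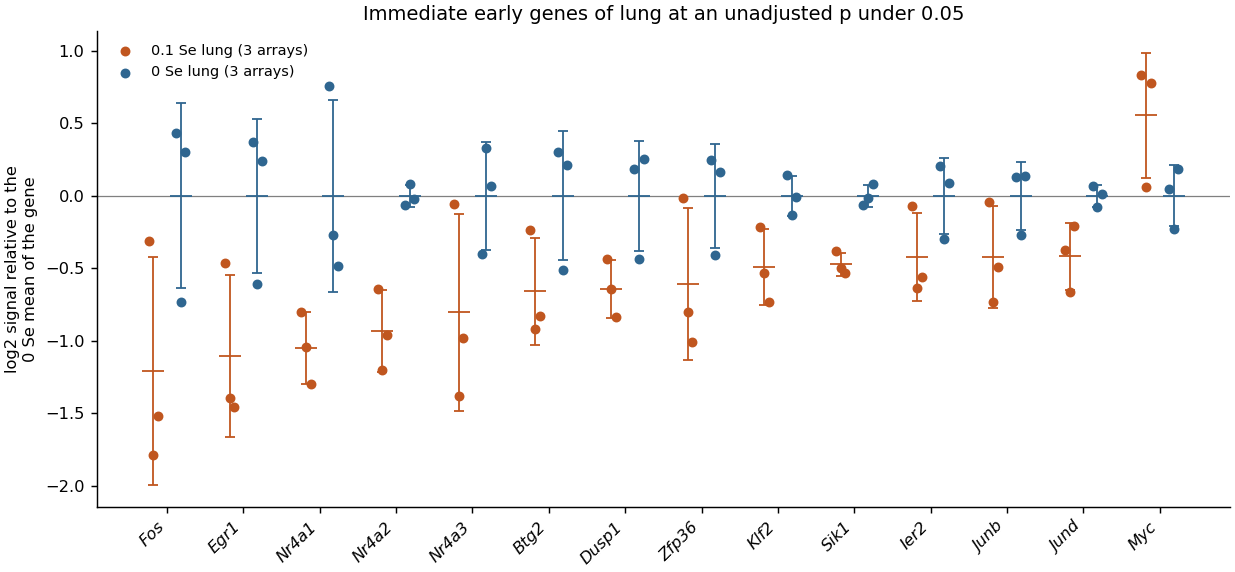
Log2 signal of the 14 members at an unadjusted p under 0.05 in lung, relative to the mean of the gene in 0 Se lung. Arrays are drawn as points, with 0.1 Se lung left and 0 Se lung right, and a dash with a bar gives the mean ± SD of 3 arrays. The 0.1 Se means lie below the 0 Se means by 0.42 (Jund) to 1.21 (Fos) for 13 genes and above for Myc.

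The NR4A orphan nuclear receptors and the EGR zinc finger factors held the largest differences as a group (median -0.87 over 6 members tested, 4 lower and 0 higher at an unadjusted p under 0.05). Nr4a2 had log2 signals of 8.67, 8.11 and 8.35 in 0.1 Se lungs, against 9.25, 9.39 and 9.29 in 0 Se lungs. The diets were well apart, and the 0 Se arrays were close to each other. Its log2 fold change was -0.93 ± 0.16 (SE, 1.91-fold lower, limma adjusted p = 0.0779), and the 3 other probe sets of Nr4a2 that could be tested gave -0.81, -0.74 and -0.65.

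Nr4a1, which encodes the receptor Nur77, had log2 signals of 9.61, 9.37 and 9.11 in 0.1 Se lungs, against 11.17, 10.14 and 9.93 in 0 Se lungs. The diets did not overlap, but 0 Se lung 1 stood far above the other two 0 Se arrays. The difference was -1.05 ± 0.27 (SE, 2.07-fold, limma adjusted p = 0.308), and without 0 Se lung replicate 1 it was -0.67. Nr4a3, the third receptor of the family, had 8.59, 7.27 and 7.66 in 0.1 Se lungs, against 8.24, 8.98 and 8.71 in 0 Se lungs. Here 0.1 Se lung 1 lay above the lowest 0 Se array. Its value was -0.80 ± 0.31 (SE, adjusted p = 0.557), and -0.52 without 0.1 Se lung replicate 2.

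Egr1, a zinc finger factor induced by growth factors and by mechanical or hypoxic stress, had log2 signals of 12.32, 11.38 and 11.32 in 0.1 Se lungs, against 13.15, 12.17 and 13.02 in 0 Se lungs. The diets overlapped by 1 array each, 0.1 Se lung 1 and 0 Se lung 2. Its log2 fold change was -1.11 ± 0.29 (SE, 2.15-fold, limma adjusted p = 0.308). The related Egr2 and Egr3 had a blank on 0.1 Se lung 2 and differed by 0.30 ± 0.33 and -0.34 ± 0.28 (SE). Egr2 had 8.73 and 7.41 in the other 0.1 Se lungs, against 7.94, 7.66 and 7.70 in 0 Se lungs. Egr3 was nearer the floor of the table, at 6.74 to 7.77.

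Of the AP-1 factors, basic leucine zipper proteins that bind DNA as dimers, all 7 tested lay below 0 (median -0.35), 3 of them at an unadjusted p under 0.05. Fos, the partner of Jun in the classical dimer, had log2 signals of 12.83, 11.35 and 11.62 in 0.1 Se lungs, against 13.57, 12.41 and 13.44 in 0 Se lungs. It was the most variable member within a diet, and 0.1 Se lung 1 lay above 0 Se lung 2. Its log2 fold change of -1.21 ± 0.37 (SE, 2.31-fold, limma adjusted p = 0.425) was the largest of all members in lung by size. Jund, which unlike Fos is made in many resting cells, had 12.85, 12.56 and 13.02 in 0.1 Se lungs, against 13.30, 13.15 and 13.24 in 0 Se lungs. The groups did not overlap, and the value was -0.42 ± 0.12 (SE, adjusted p = 0.38). Junb had 9.16, 8.47 and 8.72 in 0.1 Se lungs, against 9.33, 8.94 and 9.34 in 0 Se lungs, with 0.1 Se lung 1 inside the 0 Se range. It differed by -0.42 ± 0.19 (SE, adjusted p = 0.65), and by -0.26 without 0.1 Se lung replicate 2, and kept an unadjusted p under 0.05 in 6 of 17 alternatives. The stress-inducible Atf3 gave -0.35 ± 0.20, the small Maf protein gene Maff -0.33 ± 0.17, Jun itself -0.15 ± 0.11 and Fosl2 -0.09 ± 0.09 (SE).

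Among the feedback inhibitors the differences were split. Dusp1, Zfp36 and Sik1 lay lower at an unadjusted p under 0.05, while the other 7 tested ranged from -0.18 (Errfi1) to 0.24 (Gadd45b), so that the median over the 10 was -0.12. Dusp1, a phosphatase that switches off MAP kinases, had log2 signals of 13.77, 13.56 and 13.37 in 0.1 Se lungs, against 14.39, 13.77 and 14.46 in 0 Se lungs. The highest 0.1 Se array and the lowest 0 Se array were almost level. The difference was -0.64 ± 0.18 (SE, limma adjusted p = 0.371). Sik1, a kinase that restrains the co-activators of CREB, had 9.81, 9.70 and 9.66 in 0.1 Se lungs, against 10.13, 10.18 and 10.28 in 0 Se lungs. Both groups were tight and apart, and the value was -0.47 ± 0.10 (SE, adjusted p = 0.165), with -0.27 on its other, dimmer probe set. Zfp36, or tristetraprolin, which speeds the decay of mRNAs with AU-rich elements, had 11.21, 10.42 and 10.21 in 0.1 Se lungs, against 11.47, 10.81 and 11.38 in 0 Se lungs. With 0.1 Se lung 1 within the 0 Se range, it differed by -0.61 ± 0.24 (SE, adjusted p = 0.571). The NF-kB inhibitors Nfkbia and Tnfaip3 gave -0.15 ± 0.15 and -0.08 ± 0.10 (SE), and the survival gene Mcl1 -0.09 ± 0.12. Ppp1r15a, which helps to restart translation after stress, gave -0.08 ± 0.14, and the survival gene Ier3 0.17 ± 0.23.

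The KLF factors and other nuclear regulators gave a median of -0.42 over 7 members tested, 3 lower and 1 higher at an unadjusted p under 0.05. Klf2, a factor of quiescent endothelium and of T cells, had log2 signals of 12.49, 12.17 and 11.97 in 0.1 Se lungs, against 12.84, 12.57 and 12.69 in 0 Se lungs. The diets did not overlap, and the difference was -0.49 ± 0.13 (SE, limma adjusted p = 0.328). Btg2, an antiproliferative gene, had 12.69, 12.01 and 12.10 in 0.1 Se lungs, against 13.22, 12.41 and 13.13 in 0 Se lungs. As for Egr1, the array 0.1 Se lung 1 lay above 0 Se lung 2. The value was -0.66 ± 0.22 (SE, adjusted p = 0.466), and -0.58 on its other probe set. Ier2 had 11.26, 10.70 and 10.77 in 0.1 Se lungs, against 11.54, 11.04 and 11.42 in 0 Se lungs, which overlapped, and differed by -0.42 ± 0.16 (SE, adjusted p = 0.558).

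Myc, the growth regulator, was the member with the largest positive value in lung. Its log2 signals were 7.78, 7.01 and 7.73 in 0.1 Se lungs, against 6.997, 6.72 and 7.14 in 0 Se lungs, all close to the floor of 6.64. With 0.1 Se lung 2 inside the 0 Se range, it differed by 0.56 ± 0.22 (SE, limma adjusted p = 0.594). Klf6 gave 0.25 ± 0.12 (SE) on its brightest probe set, and its other probe sets lay between -0.09 and 0.06. Klf4 gave -0.14 ± 0.11 (SE) on its brightest probe set, and -0.43 on the other (limma adjusted p = 0.149). The nuclear protein gene Csrnp1 gave -0.44 ± 0.26 (SE). Ccn1 and Ccn2, secreted proteins of the matrix that are induced by stretch and by growth factors, gave -0.37 ± 0.21 and -0.22 ± 0.11 (SE), and the GTPase genes Rhob and Gem -0.22 ± 0.17 and 0.03 ± 0.15.

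**Figure D2:**
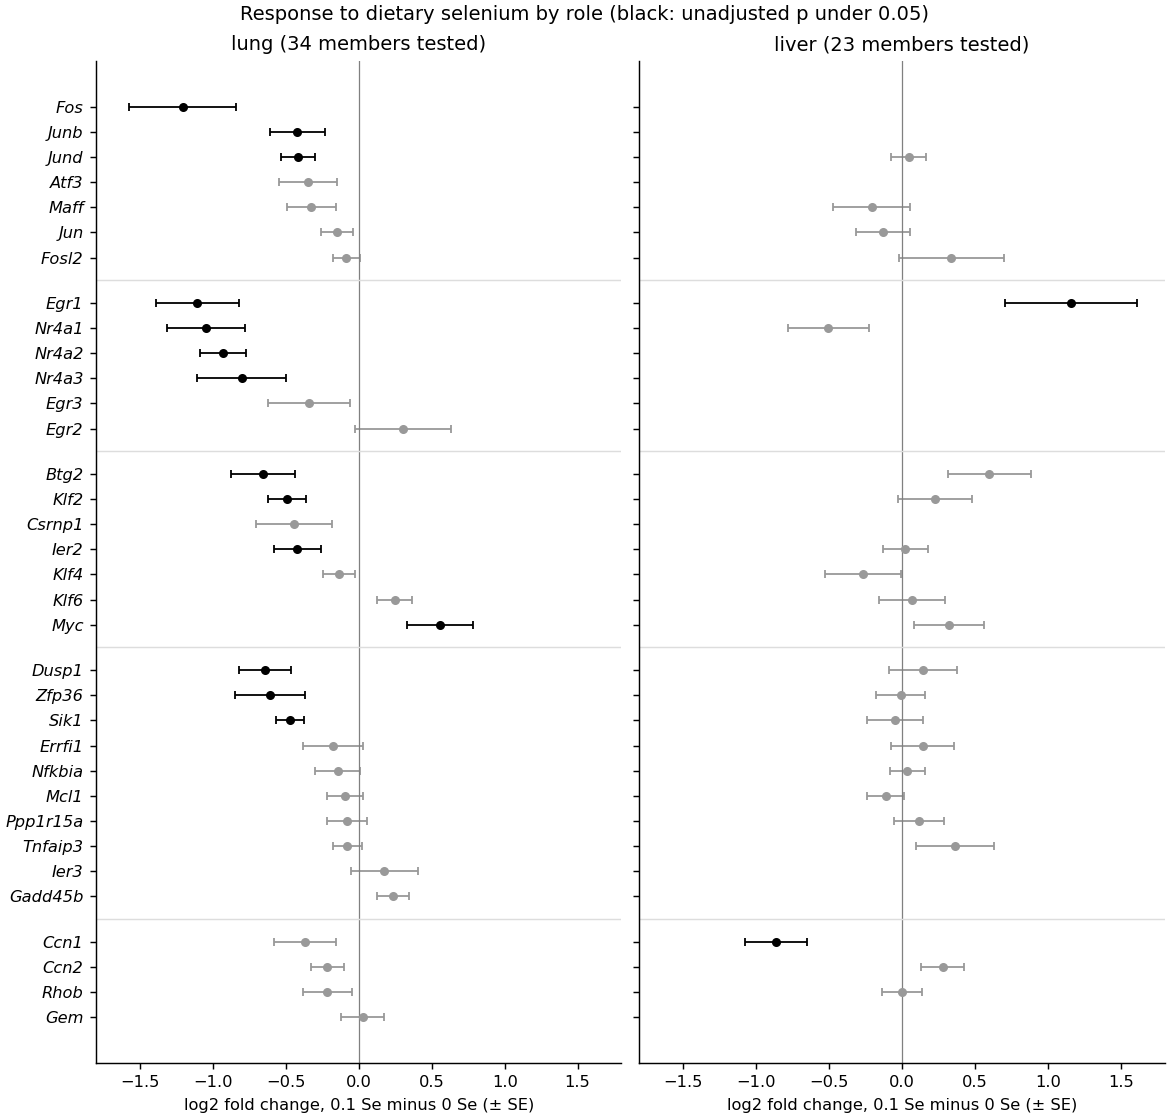
Log2 fold change (0.1 Se minus 0 Se, bars SE) of each member tested, in lung on the left and liver on the right, grouped by role from the top: AP-1, EGR and NR4A, KLF and other nuclear regulators, feedback inhibitors, and the 4 remaining members. Black marks an unadjusted p under 0.05, which 14 of 34 members had in lung and 2 of 23 in liver, and an empty place in liver is a member with too few values.

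The members differed between the arrays of one diet as well as between the diets. The 32 members listed on each lung array were set against their own mean over the 6 arrays. Their median deviation was 0.06, -0.24 and -0.29 on the 3 arrays of 0.1 Se lung, against 0.22, -0.03 and 0.30 on those of 0 Se lung, while that of all probe sets lay between -0.01 and 0.01. Thus 0.1 Se lung 1 and 0 Se lung 2 were near each other, and the gap between the diets was widest among the other 4 arrays. The lowest array was 0.1 Se lung 3 for 15 members and 0.1 Se lung 2 for 11 (against 12.9% and 18.6% of all probe sets), and the highest was 0 Se lung 1 for 13 and 0 Se lung 3 for 12 (against 17.5% and 19.3%). Within a diet the members also spread more than other probe sets, with a median SD of 0.27 against 0.16, and 18 of 32 lay above the third quartile of all probe sets (0.23). Fos had the largest SD (0.72).

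**Figure D3:**
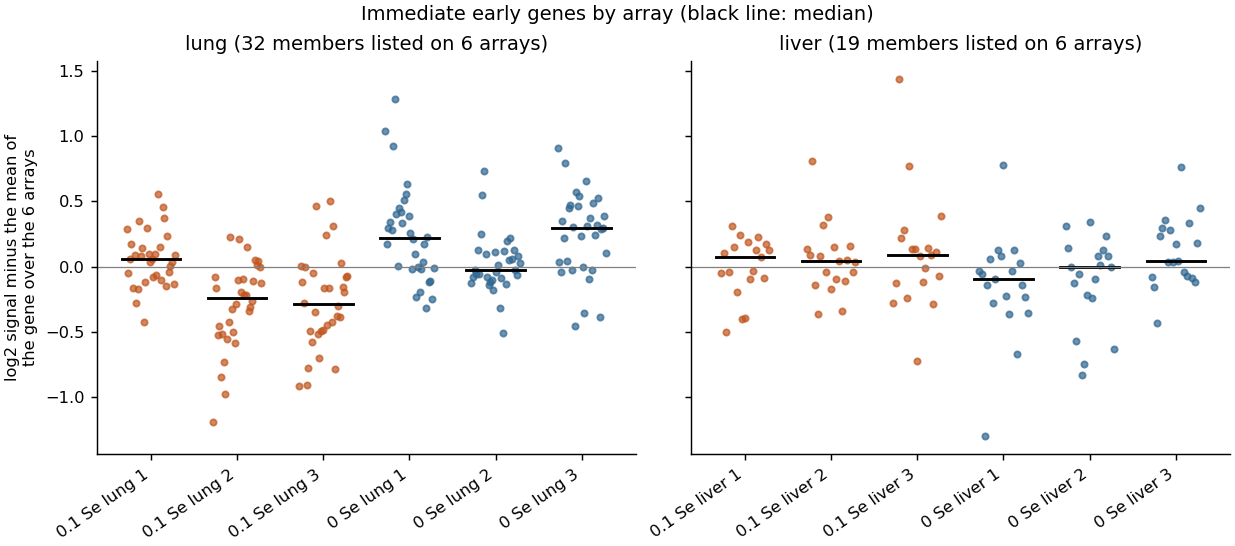
Log2 signal of each member minus its own mean over the 6 arrays of the tissue, by array, with 32 members in lung and 19 in liver. Each point is a gene and the black line the median, which is -0.24 and -0.29 on 0.1 Se lung 2 and 3 but 0.06 on 0.1 Se lung 1, against 0.22 and 0.30 on 0 Se lung 1 and 3 and -0.03 on 0 Se lung 2.

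Leaving out 0.1 Se lung replicate 1 gave limma 4 members past adjustment, all lower in 0.1 Se lung, where 75 of 20905 probe sets passed (0.359%), 47 of them lower. They were Fos (-1.66, adjusted p = 0.043), Egr1 (-1.43, adjusted p = 0.0374), Nr4a2 (-1.08, adjusted p = 0.0231) and Klf2 (-0.63, adjusted p = 0.0451). Without any other lung array 0 members passed, and the number lower at an unadjusted p under 0.05 then ran from 8 to 14. Jund, Nr4a2 and Klf2 had an unadjusted p under 0.05 in each alternative that gave a p. The median of the members stayed below 0 whichever lung array was left out, from -0.46 without 0.1 Se lung replicate 1 to -0.19 without 0.1 Se lung replicate 3.

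Markers of some cell types differed between the diets in lung as well, at an unadjusted p under 0.05. Of all lung probe sets, 3.55% were higher and 4.12% lower at that p. Neutrophil genes summed to a signal of 4238 to 16980 in 0.1 Se lung, against 1171 to 3111 in 0 Se lung, and the 3 of 7 that could be tested were higher at an unadjusted p under 0.05. The alarmin gene S100a9 stood highest on 0.1 Se lung 1, with log2 signals of 12.59, 10.65 and 10.42 in 0.1 Se lungs, against 9.92, 9.87 and 8.79 in 0 Se lungs. NK cell genes summed to 3573 to 6336 in 0.1 Se lung, against 1797 to 2785 in 0 Se lung. The 5 of 6 that could be tested were higher at that p. Erythroid genes, of which 1 of 2 tested was higher, summed to 2227 to 2530 in 0.1 Se lung, against 1322 to 1864 in 0 Se lung. That gene was Alas2, a heme synthesis enzyme, at 0.65 ± 0.12 (SE, limma adjusted p = 0.111). Ciliated cell genes summed to 803 to 1362 in 0.1 Se lung, against 1580 to 2200 in 0 Se lung, with 4 of 5 lower. Smooth muscle genes, of which 2 of 5 were lower, summed to 8692 to 11590 in 0.1 Se lung, against 10888 to 13064 in 0 Se lung. Fibroblast genes, of which 2 of 6 were lower, summed to 38677 to 40022 in 0.1 Se lung, against 41436 to 46831 in 0 Se lung. Club cell genes, of which 2 of 3 were lower, summed to 85600 to 139279 in 0.1 Se lung, against 118120 to 165724 in 0 Se lung. Genes of endothelium, where Klf2 is best known, had 0 of 7 at that p and summed to 36726 to 47963 in 0.1 Se lung, against 39901 to 41779 in 0 Se lung. Heart muscle genes had 0 of 6 at that p but differed widely between the arrays of one diet. Myh6 had log2 signals of 12.17, 9.81 and 10.27 in 0.1 Se lungs, against 9.26, 12.83 and 12.24 in 0 Se lungs. None of these markers passed adjustment by limma, and their part in the values of the immediate early genes was not tested.

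Among genes around the immediate early response, the regulators upstream differed little in lung, and so did most of the later targets. Of the SRF group (Srf and its TCF and MRTF partners), 0 of 6 tested had an unadjusted p under 0.05 in either direction (median -0.13), and of the CREB group 0 of 4 (median -0.10). Of 8 MAP kinase pathway genes 1 did, the kinase gene Map2k2 (-0.28 ± 0.12, SE). Of 32 delayed or secondary response genes, 2 passed adjustment and were lower in 0.1 Se lung, against 0.0185% of all probe sets. The genes of this list were chosen with earlier results of these data known. Phlda1, which encodes a regulator of cell survival, had log2 signals of 11.55, 11.73 and 11.68 in 0.1 Se lungs, against 12.29, 12.26 and 12.40 in 0 Se lungs, and fell by 0.66 ± 0.09 (SE, limma adjusted p = 0.034). Ptgs2, the inducible cyclooxygenase, had 10.18, 9.86 and 9.83 in 0.1 Se lungs, against 10.63, 10.81 and 10.89 in 0 Se lungs, and fell by 0.82 ± 0.12 (SE, limma adjusted p = 0.0443). In both genes the diets were far apart on each array. Neither passed with no trend in eBayes or by the methods' t-test, where 0 probe sets were called lower in lung. The same held without 0 Se lung replicate 2 or 3 and without 0.1 Se lung replicate 2 or 3. At an unadjusted p under 0.05 the ERK pathway inhibitor Spry1 was lower too (-0.42 ± 0.14), while the phosphatase gene Dusp5 was higher (0.66 ± 0.28, 2 arrays per diet). In the whole list 3 of 32 were lower and 1 higher at that p, against 4.12% and 3.55% of all probe sets. Of the 32, 19 lay below 0, against 52.1% of all probe sets, and the median was -0.07.

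Heat shock genes, which cells switch on when proteins misfold, had 10 of 12 values below 0 in lung (median -0.13), against 52.1% of all probe sets. Of these, 3 had an unadjusted p under 0.05 and 0 passed adjustment. Over all lung probe sets 4.12% were lower and 3.55% higher at that p. Hspa1a, an inducible Hsp70 gene, had log2 signals of 12.09, 11.98 and 11.23 in 0.1 Se lungs, against 12.13, 12.88 and 13.26 in 0 Se lungs. Its array order differed from that of Fos and Egr1, since 0 Se lung 1 was the lowest of the 0 Se arrays. The difference was -0.99 ± 0.28 (SE, limma adjusted p = 0.372), and the co-chaperone genes Dnajb1 and Dnajb4 gave -0.70 ± 0.20 and -0.33 ± 0.10. The related Hspa1b, on a brighter probe set, gave only -0.17 ± 0.18 (SE, limma adjusted p = 0.879). Of 8 glucocorticoid targets tested in lung, 2 lay higher at that p, Zbtb16 (1.63 ± 0.37) and Fkbp5 (0.89 ± 0.22), and 2 lower, the metallothionein genes Mt1 (-0.85 ± 0.30) and Mt2 (-0.64 ± 0.26), with 0 past adjustment. In liver Zbtb16 and Fkbp5 lay higher at that p too (1.67 ± 0.34 and 0.66 ± 0.27), with 0 past adjustment. Of 8 hypoxia genes 1 was lower, Adm (-0.51 ± 0.20), and of 6 targets of the co-activator YAP 0 reached that p in either direction.

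Promoter sequences of the members came from RefSeq on mouse build GRCm38.p6, in windows of 250 bases before to 50 bases after the start site, and 28 of the 37 members had at least one. Of the 13 members lower in lung at an unadjusted p under 0.05, 10 were among them. The windows shown cover the parts that hold copies of TGACG, the core of the cAMP response element (CRE) that CREB binds, or its reverse CGTCA, and for Zfp36 a CArG box, the element of SRF. Capitals mark these motifs, and a full CRE is the palindrome TGACGTCA, which holds the core on both strands. Each sequence runs 5′ to 3′ on the strand of the gene and ends before the start site.
Nr4a2, chr2:57124090-57124223, minus strand: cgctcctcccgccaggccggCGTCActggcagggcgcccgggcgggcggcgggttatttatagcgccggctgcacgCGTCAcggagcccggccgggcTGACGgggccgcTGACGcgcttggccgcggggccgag
Nr4a3, chr4:48045055-48045182, plus strand: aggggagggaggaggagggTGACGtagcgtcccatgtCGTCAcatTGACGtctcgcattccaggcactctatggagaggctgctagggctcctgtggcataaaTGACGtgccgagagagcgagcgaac
Nr4a1, chr15:101266596-101266830, plus strand: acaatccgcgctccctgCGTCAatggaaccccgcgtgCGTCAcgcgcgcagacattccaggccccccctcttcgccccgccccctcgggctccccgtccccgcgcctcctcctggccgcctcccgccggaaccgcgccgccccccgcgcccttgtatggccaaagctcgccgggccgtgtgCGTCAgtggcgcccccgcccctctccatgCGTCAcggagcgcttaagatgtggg
Fos, chr12:85473741-85473848, plus strand: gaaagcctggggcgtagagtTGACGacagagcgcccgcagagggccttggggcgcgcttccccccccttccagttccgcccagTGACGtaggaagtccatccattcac
Dusp1, chr17:26508588-26508683, minus strand: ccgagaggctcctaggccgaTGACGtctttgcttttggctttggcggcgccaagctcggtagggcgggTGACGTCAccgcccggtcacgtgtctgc
Btg2, chr1:134079294-134079341, minus strand: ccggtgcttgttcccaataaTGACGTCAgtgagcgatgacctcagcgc
Junb, chr8:84978830-84978874, minus strand: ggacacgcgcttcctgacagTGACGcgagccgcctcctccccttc
Klf2, chr8:72318812-72318845, plus strand: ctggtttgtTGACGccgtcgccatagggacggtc
Zfp36, chr7:28379257-28379306, minus strand: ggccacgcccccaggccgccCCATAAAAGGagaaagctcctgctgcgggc

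Of these 10 members 8 held the CRE core in their window (80%), and of 17 other members tested in lung 10 did (58.8%), against 33.1% of the 11017 genes with a probe set and 23% of all 27025 genes with a promoter in the table. Nr4a1, Nr4a2 and Nr4a3 held 4 copies each upstream of the start site. The full CRE stood in 5 of 28 members (17.9%, among them Dusp1 and Btg2), against 3.23% of genes with a probe set and 2.03% of all genes. An EGR motif (GCGNGGGCG, both strands) was found in 10 of 28 members (35.7%), against 11.6% and 6.27%. The AP-1 motif (TGANTCA) was found in 2 (7.14%), against 7% and 8.97%, and the TATA box (TATAAA) in 9 (32.1%), against 10.1% and 15.7%. An NF-kB motif was found in 9 (32.1%), against 12.1% and 9.55%, and a CArG box in 2 of the 28, Egr2 and Zfp36 (7.14%), against 1.61% and 1.81%. Members without a promoter sequence were not searched, nor were sites more than 250 bases before the start site, so a missing motif here does not mean that the gene lacks one. A match of letters is a description of the window, and binding was not measured.

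Liver gave another picture, with fewer members listed and no common direction. Of 35 members with a probe set, 19 were listed on each liver array, 9 on some and 7 on none (Fosb, Egr2, Egr3, Nr4a3, Atf3, Ier3 and Gem), while in lung 32 were listed on each array. Fos was listed on 1 liver array, 0.1 Se liver 3, at 10.00. Of 23 members tested, 9 (39.1%) lay below 0, against 51% of all probe sets, and the median was 0.05 (range -0.86 to 1.16), against -0.00 for all probe sets. By limma 0 of 23 passed adjustment, against 0.0121% of all probe sets. At an unadjusted p under 0.05, 1 was lower in 0.1 Se liver, Ccn1 (4.35%, against 3.71%), and 1 higher, Egr1 (4.35%, against 2.94%). By the methods' t-test Ccn1 and Ccn2 had an unadjusted p under 0.05 and 0 members passed adjustment. The share of all probe sets at that p was not computed for this test. All 0.1 Se arrays lay below all 0 Se arrays for 1 of 19 members, Ccn1 (5.26%, against 7.22%), and above them for 1, Ccn2 (5.26%, against 4.99%). These shares were near those of all probe sets.

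Egr1 in liver had log2 signals of 8.16, 9.47 and 10.10 in 0.1 Se livers, against 7.37, 8.66 and 8.23 in 0 Se livers. The arrays of one diet differed by more than 1 unit, and the diets overlapped. Its log2 fold change was 1.16 ± 0.45 (SE, 2.24-fold higher, limma adjusted p = 0.694), from 0.73 without 0.1 Se liver replicate 3 to 1.70 without 0.1 Se liver replicate 1. The same 0.1 Se liver 3 was the array that listed Fos, and with 1 listed array Fos could not be tested in liver. The paper's liver RNA-Seq, a different assay, listed Fos as lower in 0.1 Se. Ccn1 had 8.20, 8.42 and 7.87 in 0.1 Se livers, against 9.37, 8.94 and 8.77 in 0 Se livers. The diets were apart on this probe set, which ends in _x_at and can bind related transcripts, and the value was -0.86 ± 0.21 (SE, 1.82-fold, limma adjusted p = 0.486). Another probe set of Ccn1 gave -0.34. Ccn2 had 9.34, 9.31 and 9.23 in 0.1 Se livers, against 8.93, 8.92 and 9.20 in 0 Se livers. The groups nearly touched, with a difference of 0.28 ± 0.15 (SE, adjusted p = 0.798).

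By role the liver medians were -0.04 for AP-1 (4 members tested), 0.33 for EGR and NR4A (2 members, Egr1 and Nr4a1), 0.15 for KLF and other nuclear regulators (6 members) and 0.08 for feedback inhibitors (8 members). Nr4a1 was listed on 5 liver arrays, at 7.22, 6.94 and 7.75 in 0.1 Se livers, against 8.01 and 7.60 in 0 Se livers, and gave -0.51 ± 0.28 (SE). Btg2 had 8.34, 8.85 and 9.31 in 0.1 Se livers, against 8.44, 7.71 and 8.57 in 0 Se livers, which overlapped, and gave 0.60 ± 0.28 (SE, limma adjusted p = 0.766). Of the upstream factors, the SRF co-activator Mrtfb lay higher at an unadjusted p under 0.05, with 10.83, 10.41 and 10.66 in 0.1 Se livers, against 10.01, 9.90 and 10.02 in 0 Se livers. The diets did not overlap, and the difference was 0.66 ± 0.13 (SE, limma adjusted p = 0.379). In that SRF list 2 of 5 were higher and 1 lower at that p, against 2.94% and 3.71% of all liver probe sets. In the delayed response list 3 of 24 were higher (Nfil3 0.88 ± 0.20, Pim1 0.78 ± 0.27 and Cxcl1 0.89 ± 0.37) and 1 lower (Plk3, -0.56 ± 0.20). In both lists 0 passed adjustment. Of 9 macrophage genes 5 were higher at that p, against 2.94% of all liver probe sets, and 0 after adjustment. The macrophage genes summed to 25219 to 30637 in 0.1 Se liver, against 18977 to 23781 in 0 Se liver. Their part in these values was not tested.

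Whether the response to diet differed between the tissues was tested for the 22 members with enough values in each group. The response was below that of liver in 17 of them, with a median difference (lung minus liver) of -0.37, against -0.00 over all probe sets. By limma 0 of 22 passed adjustment, as did 0% of all 15112 probe sets. At an unadjusted p under 0.05 there were 6 (27.3%, against 6.16% of all probe sets), all with a negative difference, namely Egr1, Btg2, Dusp1, Klf2, Ccn2 and Jund. Egr1 had the largest, since its signal was lower in 0.1 Se lung and higher in 0.1 Se liver than in 0 Se of the same tissue, and the difference of the 2 responses was -2.27 ± 0.61 (SE, limma adjusted p = 0.61). For Klf2 and Dusp1 the liver response turned to -0.09 and -0.10 without 0 Se liver replicate 2, and for Jund to -0.02 without 0 Se liver replicate 3.

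**Figure D4:**
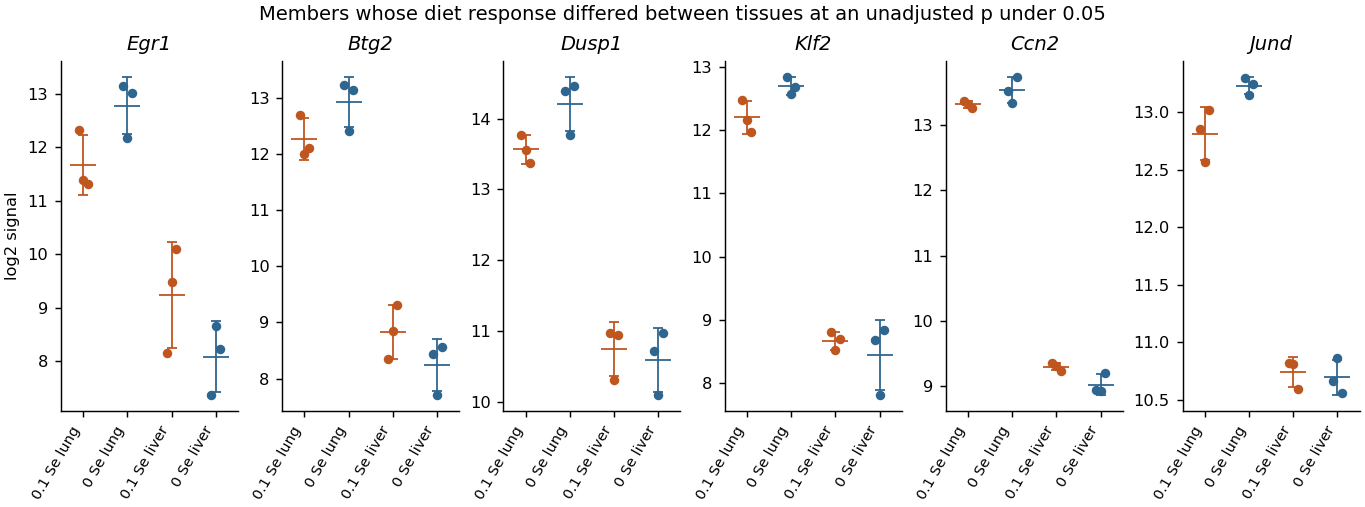
Log2 signal of the 6 members whose diet response differed between the tissues at an unadjusted p under 0.05. Arrays are drawn as points, and a dash with a bar gives the mean ± SD of 3 arrays, with an axis per gene that does not start at 0. In each gene both lung groups lie above both liver groups, and the 0.1 Se mean lies below the 0 Se mean in lung and above it in liver, with all 3 arrays per group included.

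The members were far more abundant in lung than in liver. Over the arrays of both diets, 19 of 22 were higher in lung by limma (86.4%, against 47.7% of all probe sets) and 1 was lower (4.55%, against 33.9%). The median difference was 2.30 log2 units, where that of all probe sets was 0.18, and 0.38 or 0.45 once arrays were centred on the median or quantile normalized. Ccn2 was 19.4-fold higher in lung (4.28 ± 0.08, SE), Klf6 17.6-fold, Btg2 16.6-fold, Jun 15-fold, Klf2 14.9-fold, Egr1 11.8-fold, Ccn1 10.8-fold and Dusp1 9.29-fold, each with limma adjusted p of 2.9e-08 or less. Klf4, a factor of epithelial barriers and of vessel walls, was at 13.11 to 13.53 on the lung arrays and was listed on 4 of 6 liver arrays, at 6.87 to 7.39. Since its liver values lay near the floor of 6.64 and blank arrays were left out, no fold is given for it. The smallest of the 19 differences were those of Maff (1.75-fold) and Nfkbia (1.96-fold). Errfi1, an inhibitor of the EGF receptor, was the exception. Its log2 signals in lung were 13.04 ± 0.31 with 0.1 Se and 13.21 ± 0.42 with 0 Se, against 15.08 ± 0.17 and 14.94 ± 0.53 in liver (SD, n = 3), which makes it 3.70-fold lower in lung (-1.89 ± 0.17, SE, adjusted p = 4.86e-08). Myc (0.00 ± 0.17) was called in no scaling, while Zfp36 (0.37 ± 0.17, adjusted p = 0.0559) passed, higher in lung, once arrays were centred on the median or quantile normalized.

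**Figure D5:**
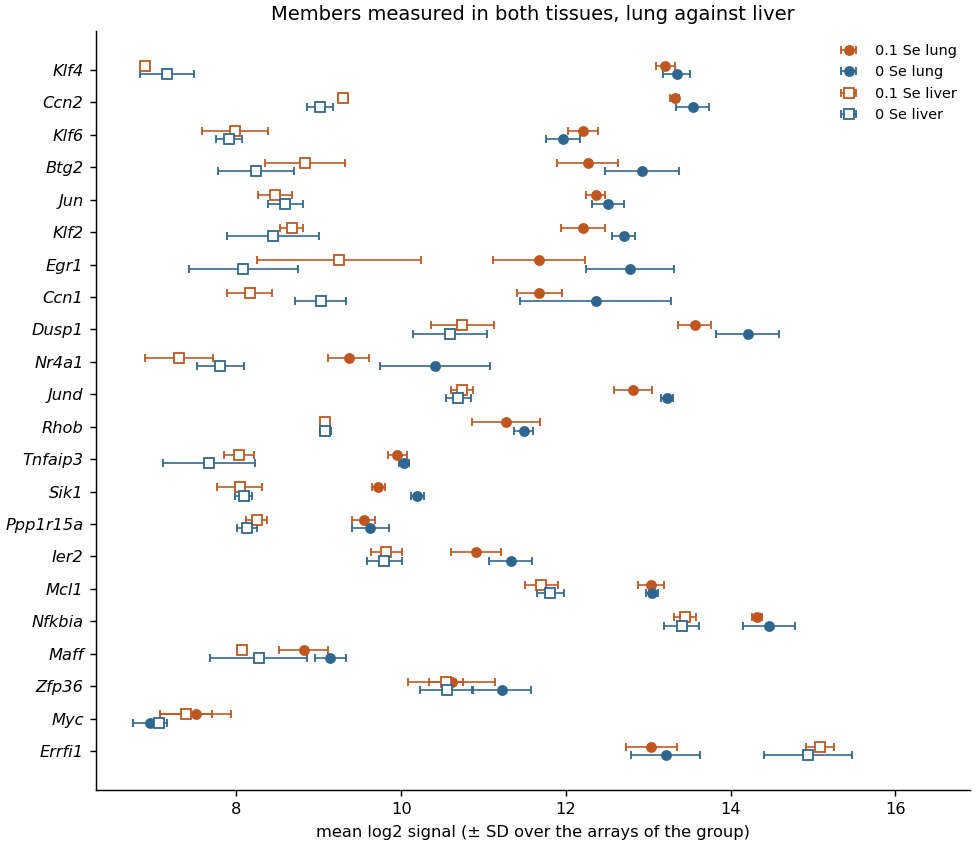
Mean log2 signal, over the arrays that listed it, of each of the 22 members measured in both tissues, ordered by the difference between lung (filled circles) and liver (open squares), with 0.1 Se above 0 Se in each pair and bars for the SD. Lung lies to the right except for Zfp36 with 0.1 Se and Myc, where the tissues nearly coincide, and Errfi1, where liver lies to the right.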

How the data were processed

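Total RNA of liver and lung from male FVB/N mice had been labelled with biotin and hybridized to Affymetrix 3′ expression arrays, 3 per diet and tissue, and each array was grouped by the diet and tissue in its label, with 0 columns left without a sample. The authors computed MAS5 signals array by array and excluded absent calls. Tools listed in the submitters' processing notes, without a role, were affy 1.36.0 and R 2.15.2. The deposited values are log2 signals, from 6.64 upwards, and were used without further scaling. Of 29467 probe sets, 58 controls were left out, and 24504 were annotated to a single gene (24434 matched to RefSeq by Entrez number).

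Diets were set against each other within a tissue (0.1 Se minus 0 Se) with lmFit and eBayes with trend of limma 3.58.1 under R 4.3.3, for probe sets with at least 2 values per diet. Blanks stayed missing, and p-values were adjusted over all probe sets by Benjamini-Hochberg at 0.05. The interaction of diet and tissue and lung against liver were fitted on the 12 arrays, taken as independent. Whether a lung and a liver array came from the same mouse is not known from the labels. Limma's p-values rest on the spread between the 3 biological replicates of a group, drawn towards a trend over all probe sets. Members that spread more than this trend can thus get a smaller p than from their own replicates alone. For Fos in lung p was 0.00786 by limma and 0.108 by the methods' t-test. Scripts were tested on simulated data. Every member could be named. Of each other list, at most 4 genes with the smallest p were named, while S100a9 and other markers are examples of their lists. Hspa1b was named in addition, beside Hspa1a. The members and lists were chosen with earlier results of these data known. Summed signals are linear signals added over the genes of a list. Alternatives covered the filter, scaling, an offset of 32 on the signal, eBayes settings, weighted arrays, a block for replicate number, 1 fit of the 12 arrays, other probe sets, the methods' t-test and leaving out each array. The summary of 1 group of members by role is not reported here.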

Additional observations from a re-analysis of the deposited data

Results flagged for a closer look

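The response to diet differed between lung and liver for 6 members at an unadjusted p under 0.05, and none of these passed limma's adjustment. The difference of the responses (lung minus liver) was -2.27 ± 0.61 (SE) for Egr1, -1.26 ± 0.39 for Btg2, -0.79 ± 0.33 for Dusp1, -0.72 ± 0.30 for Klf2, -0.50 ± 0.15 for Ccn2 and -0.46 ± 0.17 for Jund, with limma adjusted p between 0.61 and 0.76. Over 21 alternatives Egr1 ran from -2.81 to -1.84, Btg2 from -1.51 to -0.99 and Ccn2 from -0.59 to -0.39, each with an unadjusted p under 0.05 in all 21. Jund ran from -0.57 to -0.32, Klf2 from -0.91 to -0.40 and Dusp1 from -1.01 to -0.54, with that p in 20, 15 and 13 alternatives. The value of Klf2 nearest to 0 was that without 0 Se liver replicate 2, where the liver response of Klf2 was -0.09, and Dusp1 was at -0.54 and its liver response at -0.10. The liver response of Jund was -0.02 without 0 Se liver replicate 3.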

How the results depend on the processing

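In 0.1 Se lung the number of members past adjustment was 0 in the main setting, 1 with array weights (Nr4a2, adjusted p = 0.0221), 3 with the replicate block and 0 to 4 over the arrays left out, where 0.249% of all probe sets passed with array weights and 0.245% with the block. The replicate block called Fos (adjusted p = 0.034), Egr1 (adjusted p = 0.04) and Nr4a1 (adjusted p = 0.0411). But correlations of same-numbered arrays lay between -0.19 and 0.10, so the numbers were not taken as pairs. Between 0 Se lung and 0 Se liver they were 0.10, 0.06 and 0.10, against -0.09 to -0.01 for arrays of different number. Between 0.1 Se lung and 0.1 Se liver they were -0.01, 0.02 and -0.04. The labels do not say whether a lung and a liver came from the same mouse. Members lower at an unadjusted p under 0.05 numbered 13, 7 with blanks at the lowest value, 4 by the methods' t-test and 8 to 18 over arrays left out. Members higher numbered 1, and 0 with blanks at the lowest value, with only probe sets above the median signal and by the t-test, 2 with median centring, quantile normalization or the block, 3 with array weights, and 0 to 3 over arrays left out.

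In liver 0 members passed in any alternative. Those lower at an unadjusted p numbered 1, 2 with the block, 0 on the probe set of second highest signal and 1 to 2 over arrays left out. Those higher numbered 1, 2 with the 12 arrays in 1 fit or array weights, 3 with the block, 0 with a robust trend, and 0 to 3 over arrays left out. The liver median turned to -0.006 without 0 Se liver replicate 2, was 0.13 without 0 Se liver replicate 3 and was 0.00 with blanks at the lowest value. In lung against liver 31 members passed with blanks at the lowest value, against 20, since more members were then tested, and 18 to 21 did over arrays left out.

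The other settings kept the direction of the members' medians, and their counts lay within 1.5 times those of the main setting. The mean over probe sets gave medians with no p, and the t-test was not run for the interaction. The number of arrays limits the precision, and members near the floor of 6.64, such as Myc and Egr3, carry the least signal.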
